A study of Mus musculus with 5 samples.

Results

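Between 7 h and 21 h of exposure to bacterial lipopolysaccharide (LPS), macrophages grown from bone marrow of the C3H/HeJ mouse strain were compared on 1 array at each time, 2 of the 5 arrays of the study, picked by the time in their labels. Genes lower at 21 h included Ptger4, the receptor EP4 for prostaglandin E2, and Nfkbie, an inhibitor of NF-kB. Ubd, a ubiquitin-like protein induced by interferon and TNF, and the immunoproteasome genes Psmb9 and Psme2 were lower as well. Genes higher at 21 h included Ly86, the MD-1 partner of an LPS-binding receptor, Tlr2, the receptor for bacterial lipoproteins, and Steap3, an endosomal ferrireductase. Tlr2 had 1 probe and fell short of 2-fold once the local spread of the arrays was matched. Of 8947 named genes measured on both arrays, 648 were at least 2-fold higher at 21 h (7.24% of those compared) and 712 at least 2-fold lower (7.96%). The direction depended on where a probe stood in the numbering of the array. Differences of the 2 outermost probes of a gene correlated at only 0.10.

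Both groups were macrophages grown from C3H/HeJ bone marrow with human CSF-1, and both had received 10 µg/ml LPS of S. minnesota, for 7 h or for 21 h. The remaining arrays held unexposed cells (0 h) and cells after 0.5 h and 2 h of the same LPS. The strain carries a point mutation in Tlr4 that makes its cells hyporesponsive to LPS, and no wild type strain was among the 5 samples. Every array set macrophage RNA against RNA of whole C57BL6/J embryos of 17.5 days on the same slide, so a level here is a log ratio of macrophage to embryo. How many mice or cultures gave each RNA is not in the labels.

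Levels are the deposited log ratios, read as base 10, after each array was set to a median of 0 over the 19441 probes with a value on both arrays. A difference is the 21 h level minus the 7 h level, averaged over the probes of a gene, and the size rule of 2-fold is 0.301 in these units. Base, centring and direction are not stated in the sources used here. Macrophage over embryo is the likely direction, because macrophage genes lay above embryo genes, and every sign rests on it. With 1 array a time there was no replicate and no test, and the only error available was the spread among probes of the same gene, an SD of 0.24 when pooled over the 3184 genes with at least 2 probes. It holds no spread between cultures. In such bulk samples fewer cells that express a gene and less RNA per cell cannot be told apart.

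LPS is bound by MD-2 on Tlr4 at the cell surface, and the receptor signals through adaptor proteins to NF-kB, MAP kinases and interferon regulatory factors. In macrophages this pathway is known for waves of expression: immediate early regulators and cytokines first, then genes driven by secreted interferon, and feedback inhibitors that end the response. Prostaglandin E2, made by the same cells, acts back on them through EP4.

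The macrophage label was set beside marker lists. The direction of the ratio was taken from the order of macrophage and embryo genes. That order is therefore no separate support for the label. Among 14 measured macrophage identity genes the median level was 0.66 at 7 h and 0.66 at 21 h. Lyz2, the lysozyme of myeloid cells, was at 1.31 and 1.19, Lcp1, an actin bundler of leukocytes, at 1.15 and 1.36 (a difference of 0.21, but -0.36 spread-matched as defined below), and Laptm5, a lysosomal protein of blood cells, at 0.98 and 1.19. Cd68 (-0.22 and -0.11) and Tyrobp (-0.29 and -0.19), which macrophages express, lay below 0 on both arrays, and against the label in that respect. Embryo lists lay below 0 at both times, with medians of -0.73 and -0.65 for 21 fetal liver genes and -0.34 and -0.46 for 30 muscle genes.

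The difference depended on where a probe stood in the numbering of the array. Of the probes numbered 1 to 6000, 17.3% were higher at 21 h and 2.00% lower. Of those numbered 7601 to 10400, 1.11% were higher and 24.3% lower, and of those numbered 12001 to 12800, 2.06% and 24.5%. These bounds were drawn after the values were seen, and what the number stands for on the slide is not given. In the same blocks the spread of the arrays differed too: the SD of the probe values was 0.27 at 7 h and 0.34 at 21 h for probes 1 to 6000, and 0.41 and 0.29 for probes 7601 to 10400. The part of this pattern in each gene's difference was not tested. Differences were therefore computed on 2 further scales. Position-corrected differences have the running median over 400 probe numbers removed, and spread-matched ones have both the local median and the local spread of the arrays matched over 400 probe numbers. Position-corrected, 605 genes were higher (6.76% of those compared) and 502 lower (5.61%), of which 493 and 480 were also past the rule before the correction. Spread-matched, 528 were higher (5.9%) and 503 lower (5.62%), with 377 and 408 shared. Below, a named gene is given on these scales where either ends or makes its call. Counts of list members are to be read beside the shares over all named genes, 7.24% higher and 7.96% lower before correction. Of the other arrays the 0 h and 2 h ones are set beside the genes. The 0.5 h array is not, except for Ptger4, Nfkbie, Siglecf and Steap3. It correlated at 0.40 with the 7 h array and 0.48 with the unexposed one, and it lacked 1104 values.

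**Figure D1:**
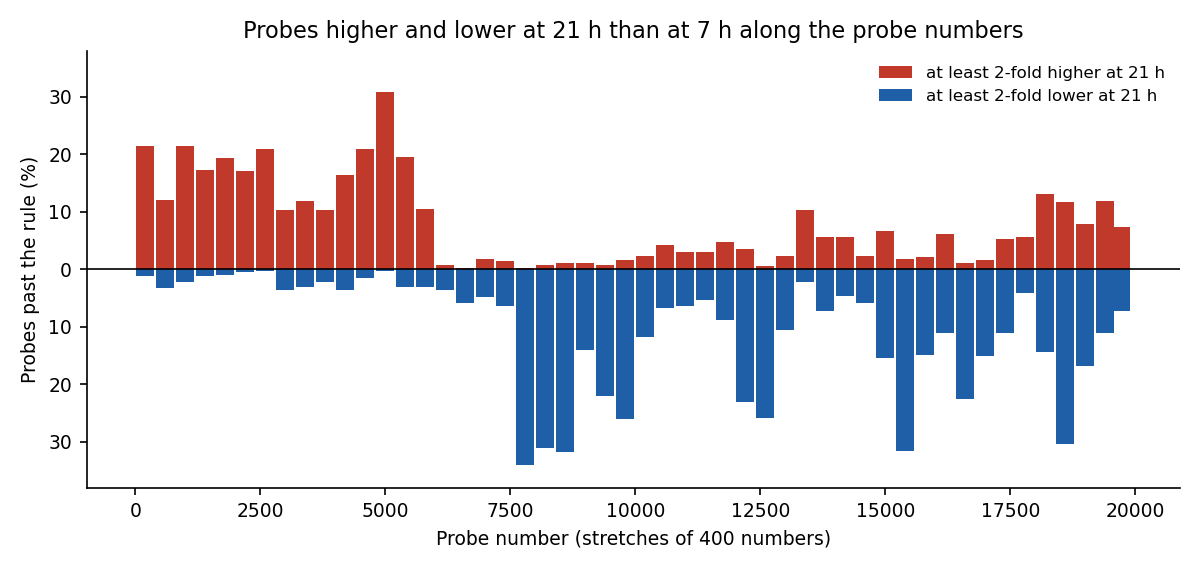
Share of probes (%) at least 2-fold higher (red, upward) or lower (blue, downward) at LPS 21 h than at LPS 7 h, in stretches of 400 probe numbers along the array. Probes numbered 1 to 6000 were mostly higher among those past the rule, and probes 7601 to 10400 mostly lower.

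The 21 h array stood apart over the last 1828 probe numbers, above 18000. Its correlation with the 7 h array there was -0.01 and with the unexposed array 0.08, while the 7 h and unexposed arrays correlated at 0.68 (Pearson, across probes, which are not replicates). No probe with a gene symbol has a number above 17527, so the counts of named genes were 648 and 712 with and without that block. This equality was fixed in advance, because the array medians were still taken with the block included. Over all probes the 7 h and 21 h arrays correlated at 0.63. The 2 outermost probes of a gene gave differences that correlated at 0.10 over 3184 genes, 0.35 where their numbers lay at most 400 apart (260 genes) and 0.05 where they lay farther apart (2924 genes).

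Because probes of a gene agreed little, genes on several probes were read first. Of the 3184 genes with at least 2 probes, all probes passed the 2-fold rule downwards in 37 and upwards in 15. The differences of the 2 outermost probes had the same sign in 52.7% of the 3184 genes. In 22 of the 37 and in all 15 of the others the probes lay more than 400 numbers apart. Spread-matched, every probe passed in 15 genes downwards and in 5 upwards. Genes named from these sets were picked for the agreement of their probes, which is therefore no separate support. The share of genes past the rule fell with the number of probes averaged, from 19.0% of genes with 1 probe to 10.4% with 2 and 5.19% with 3 or more. Under quantile normalization of the arrays the balance moved to 808 higher and 575 lower, from 47.6% to 58.4% higher among genes past the rule.

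**Figure D2:**
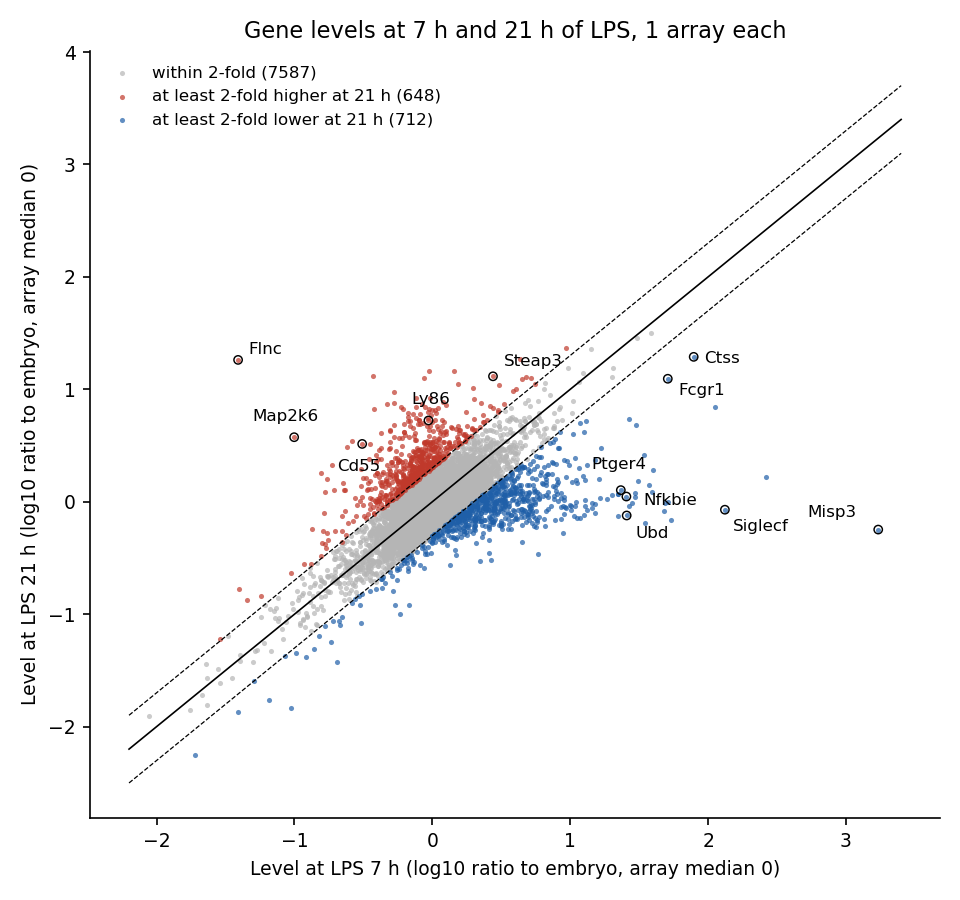
Level of each of the 8947 named genes (log10 ratio of macrophage to embryo, array median 0) at LPS 7 h on the x axis and LPS 21 h on the y axis, 1 array each. The solid line marks equal levels and the dashed lines the 2-fold rule; 648 genes lie above the upper line and 712 below the lower one.

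Among prostanoid receptors Ptger4 was measured by 3 probes, at 1.99, 1.05 and 1.06 at 7 h and at 0.19, 0.03 and 0.09 at 21 h. All 3 probes were high at 7 h and near the array median at 21 h. Ptger4 is among the genes picked because every probe passed the rule, so this agreement is part of the choice. The difference was -1.26 ± 0.47 (SD over 3 probes), an 18.3-fold lower ratio on base 10, and -1.06 position-corrected. These probes lie between numbers 8251 and 8502, in a block of mostly lower probes, and ranked at percentiles 0.50, 5.74 and 6.48 among their 400 nearest neighbours. Unexposed cells had a mean of 0.67 and the 2 h array 1.74, so 21 h was the lowest of the 0, 2, 7 and 21 h arrays. The 0.5 h array had 0.11, beside a mean of 0.10 at 21 h, so a low level was not particular to 21 h.

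Tbxa2r, the thromboxane receptor, had 1 probe, at 1.002 at 7 h and -0.07 at 21 h, a difference of -1.07 (-0.92 position-corrected). It too was highest at 2 h, at 2.15. Of 13 measured genes of the prostanoid and leukotriene pathway these 2 were lower and 1 was higher, Pla2g4a, the phospholipase that releases arachidonic acid, at 0.42 and 0.85 (a difference of 0.43, and 0.01 spread-matched). Ptgs2, the inducible cyclooxygenase, stood at -0.01 and 0.04. The synthases Ptges2 and Ptges3 differed by -0.04 and 0.00, and Ltb4r1, a leukotriene B4 receptor, by 0.03. The list median was -0.04, beside -0.02 over all named genes.

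Interferon-stimulated genes were divided. Of 24 measured antiviral effectors 6 were lower and 2 higher at 21 h, with a list median of -0.03. Both position-corrected and spread-matched, 3 were lower and 2 higher, but the higher genes differed. They were Oas1a and Ifi204 position-corrected, and Ifit3 and Ifit2 spread-matched. Ubd led the lower genes. Its probes were at 1.43 and 1.39 at 7 h and at -0.09 and -0.15 at 21 h, a difference of -1.53 ± 0.02 (SD over 2 probes) and of -1.30 position-corrected. Both probes agree closely, but their numbers, 8449 and 8498, are neighbours. The Rbm34 probes, for an RNA-binding protein of no interferon list, lie at 8446 and 8447 and differed by -1.17 ± 0.00 (SD over 2 probes).

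Ifit1, a sensor of foreign RNA caps, was at 0.92 and 0.90 at 7 h on its 2 probes and at 0.51 and 0.44 at 21 h. The difference was -0.43 ± 0.04 (SD over 2 probes), but -0.26 position-corrected, within the rule. The Ifit1 probes, 12305 and 12354, are neighbours in a block where 24.5% of probes were lower. They ranked at percentiles 18.7 and 14.7. Ifit1bl2 of the same family, on no list, was lower on all of its 3 probes (-0.74 ± 0.15, SD over 3 probes). These lie at 7811, 8163 and 8589, in the mostly lower block 7601 to 10400, at percentiles 6.23, 7.98 and 13.5. Rsad2, viperin, was divided between its probes, at -0.72 and 0.10, and its mean of -0.31 was within the rule position-corrected (-0.23). Lgals3bp (-0.40) and Ube2l6 (-0.33), a conjugating enzyme for ISG15, kept their call after correction, and Ifi35 (-0.35) did not, at -0.17. Lgals3bp was within the rule after quantile normalization, at -0.16.

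The 2 higher effectors were Oas1a, an oligoadenylate synthetase, at 0.58 and 0.98, and Ifi204, a DNA sensor of the p200 family, at 0.97 and 1.36. Among interferon-inducible GTPases, which attack vacuoles that hold microbes, Tgtp1 (1.47 and 0.68) and Gbp2 (0.99 and 0.33) were lower and Igtp (0.29 and 0.64, SD of the difference 0.25 over 2 probes) higher, of 5 measured. Spread-matched, Ifi204 was at -0.10, and Oas1a (0.26), Gbp2 (-0.29) and Igtp (0.10) were within the rule. Ifit3 differed by 0.13 and Ifit2 by 0.19, both past the rule spread-matched (0.42 and 0.36), Irf7 by 0.19 ± 0.08 (SD over 2 probes) and Usp18 by -0.08.

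Promoters are shown for 3 lower and 2 higher genes of these lists, by their calls before correction. On that scale both directions occur among genes with the same element. Spread-matched, Ifit1 (-0.15), Gbp2 (-0.29), Oas1a (0.26) and Igtp (0.10) were within the rule, and Tgtp1 (-0.41) was lower. The motif GAAANNGAAA, a core of the interferon-stimulated response element, was searched on both strands over the 250 bases before the RefSeq start (GRCm38.p6). Matches can overlap, and a match is a description of letters only. It occurred in 5 of 17 antiviral effectors with a promoter in the table, in 4 of 5 GTPases, and in 3.46% of 27025 genes. Of lower genes 3.27% held it and of higher genes 3.01%, beside 3.20% of all named genes measured. Each line gives the strand of the gene, with the motif or its reverse complement in capitals.
Ifit1, lower, chr19:34640774-34640843, plus strand: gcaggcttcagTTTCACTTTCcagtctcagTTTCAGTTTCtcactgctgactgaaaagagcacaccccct
Gbp2, lower, chr3:142620574-142620643, plus strand: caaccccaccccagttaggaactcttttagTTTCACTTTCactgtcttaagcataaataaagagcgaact
Tgtp1, lower, chr11:48992284-48992353, minus strand: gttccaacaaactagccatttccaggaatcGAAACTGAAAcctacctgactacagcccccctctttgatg
Oas1a, higher, chr5:120907526-120907569, minus strand: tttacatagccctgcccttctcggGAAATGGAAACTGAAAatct
Igtp, higher, chr11:58199492-58199555, plus strand: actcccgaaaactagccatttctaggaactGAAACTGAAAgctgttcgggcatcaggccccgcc

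In antigen presentation by MHC class I, 2 of 13 measured genes were lower and 0 higher, and both belong to the immunoproteasome. Psmb9, its LMP2 catalytic subunit, was at 0.79 and 1.46 at 7 h on 2 probes and at 0.07 and 0.59 at 21 h. The difference was -0.80 ± 0.10 (SD over 2 probes), a 6.24-fold lower ratio on base 10, and -0.65 position-corrected, on probes numbered 8276 and 10018. Psme2, the PA28 beta regulator, was at 0.47 and 1.62 at 7 h and at -0.07 and 0.41 at 21 h, a difference of -0.88 ± 0.48 (-0.84 position-corrected) on probes 15632 and 16043. Each probe of both genes was lower at 21 h, and both are among the genes picked because every probe passed the rule. Its partner Psme1 differed by 0.06, and the other inducible subunits Psmb8 and Psmb10 by -0.21 and -0.02. B2m, the light chain of class I, differed by 0.00.

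Among all 41 proteasome subunits measured 3 were lower and 0 higher, Psmb9, Psmb7 (-0.37, and -0.29 spread-matched) and the lid subunit Psmd13. Psmd13 was at 1.49 at 7 h and 0.19 at 21 h on 1 probe, a difference of -1.31, with 0.35 in unexposed cells and 1.05 at 2 h. The list median was -0.05.

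Of 8 measured genes of MHC class II presentation 3 were lower and 0 higher. Ctss, the cathepsin that trims the invariant chain, was at 1.90 and 1.29, a difference of -0.61 on 1 probe, but 0.074 after quantile normalization. H2-DMb1, a peptide exchange chain, differed by -0.48 and H2-Eb1, a beta chain of the class II molecule, by -0.36. The last was within the rule after position correction, at -0.25, while Cd74, the invariant chain itself, moved from 0.13 to 0.31 and past it upwards. The list median was -0.07, and -0.02 position-corrected. Spread-matched, 2 of the 8 were lower and 2 higher.

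**Figure D3:**
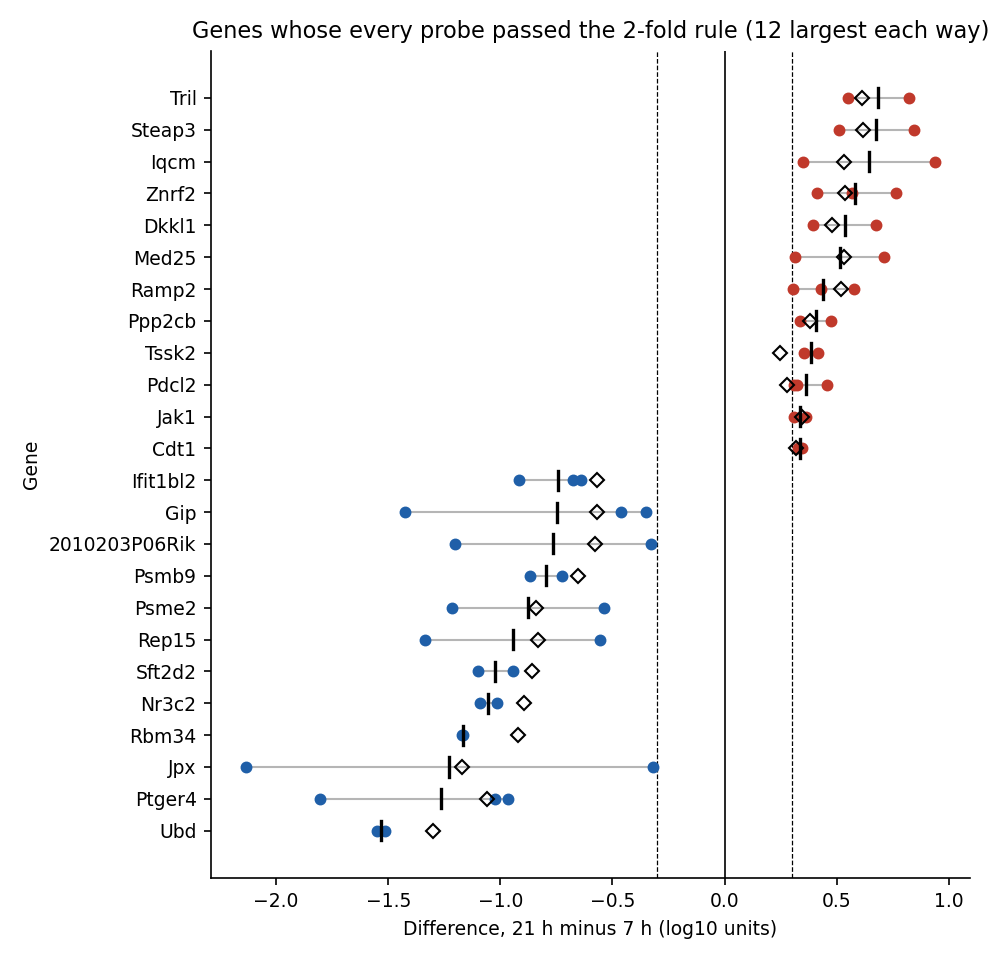
Difference of 21 h minus 7 h (log10 units) for genes whose every probe passed the 2-fold rule (dashed lines), the 12 largest in each direction. Points are probes, the black bar is the gene mean and the diamond the position-corrected mean. Tssk2 and Pdcl2 are within the rule once corrected.

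The genes of LPS and Toll-like receptor recognition lay on the other side. Of 9 measured, 5 were higher and 0 lower at 21 h, with a median of 0.32, and the same counts held position-corrected with a median of 0.33. Spread-matched, 2 were higher and 1 lower, the median was 0.17, and Tlr2 (0.22), Traf6 (0.23) and Unc93b1 (0.15) were within the rule. Ly86 was at -0.03 at 7 h and 0.72 at 21 h on 1 probe, a difference of 0.75, beside 0.07 in unexposed cells and -0.16 at 2 h. The 21 h level was thus the highest of these 4. Its product MD-1 binds RP105, a relative of Tlr4. The Ly86 probe, numbered 859, lies in the block 1 to 6000, where 17.3% of probes were higher. It ranked at percentile 95.0 among its neighbours.

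Tlr2 was at 0.22 and 0.60, a difference of 0.38 on 1 probe. Unc93b1, which carries Toll-like receptors to endosomes, was at 0.31 and 0.63, a difference of 0.33. Both probes have numbers, 10507 and 10429, in a block where 3.78% of probes were higher, and ranked at percentiles 99.3 and 97.5 among their neighbours. On the 2 h array they stood at 0.68 and 0.82, so 7 h was lower than both its neighbours in time.

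Traf6, the ubiquitin ligase downstream of MyD88, averaged 0.37, but its 2 probes gave 0.83 and -0.09, a spread (SD 0.65) wider than the mean. Tab1, an activator of the kinase TAK1, differed by 0.32, while Tab2 (-0.05), Irak1 (0.06) and Tbk1 (-0.24) were within the rule, Tbk1 being lower spread-matched (-0.35). Tril, an accessory protein of Tlr4 on no list, had both probes higher. They were at -0.995 and -0.58 at 7 h and at -0.45 and 0.24 at 21 h, a difference of 0.69 ± 0.19 (SD over 2 probes). Their numbers, 855 and 2555, lie in the block 1 to 6000 of mostly higher probes, at percentiles 91.8 and 99.0.

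The list of IRF (interferon regulatory factor) and STAT signalling had 4 of 19 genes higher and 1 lower, 2 and 1 position-corrected, and 1 and 1 spread-matched. It holds activators and regulators together. Jak1, a kinase of interferon receptors, was higher on both probes, numbered 403 and 10518, at 0.31 and 0.08 at 7 h and at 0.67 and 0.39 at 21 h. The difference was 0.34 ± 0.04 (SD over 2 probes), just past the rule there and position-corrected (0.35), but within it spread-matched (0.19). Pias2, a SUMO ligase that acts on STAT proteins, differed by 0.83 on 1 probe. Irf9 (0.31) and Pias1 (0.31) were within the rule after correction, at 0.25 and 0.22. Irf5, an interferon regulatory factor of inflammatory macrophages, was the 1 lower gene, at 1.04 and 0.38.

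Of 14 NF-kB genes 1 was lower and 1 higher (7.14% each), near the shares over all named genes, 7.96% and 7.24%. Nfkbie was at 1.41 at 7 h and 0.05 at 21 h, a difference of -1.36 on 1 probe (-1.25 position-corrected), at percentile 1.25 among its neighbours. Nfkbie was at 0.27 in unexposed cells and 0.83 at 2 h. On the 0.5 h array it was at 1.68, above its 7 h level. Birc3, an inhibitor of apoptosis, was at -0.04 and 0.68. The related inhibitors Nfkbia (-0.13), Nfkbib (-0.21) and Nfkbid (-0.06) stayed within the rule, as did Rela (-0.08), and the list median was -0.07.

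Immediate early and stress regulators had 3 of 28 genes in each direction (10.7%), beside 7.24% higher and 7.96% lower over all named genes. Egr2 (0.53), Gadd45a (0.51), a stress-induced growth arrest gene, and Srf (0.35), the serum response factor, were higher, and Klf4 (-0.44), Fosl2 (-0.35 ± 0.08, SD over 2 probes) and Myc (-0.31) lower. After position correction the 3 lower genes and Srf were within the rule, at -0.27, -0.28, -0.09 and 0.30. Fos (-0.29) and Mafk (-0.30), a small Maf protein, were past it on that scale, both at -0.32, which made 2 lower and 2 higher. Spread-matched, Egr2 was within the rule at 0.26, with 3 of the list lower and 1 higher. Jun and Junb differed by 0.06 and 0.05.

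Of 29 measured cytokines and chemokines 4 were lower and 1 higher, with the same counts after position correction and 2 and 0 spread-matched. Cxcl10, a chemokine for T cells induced by interferon, was at 0.45 and -0.01, and Ccl12, a chemokine for monocytes, at 0.26 and -0.12. Ccl25, known from thymus and gut, was lower by -0.53 ± 0.31 over 5 probes, and Cxcl12 by -0.41 on 1. Ccl9, a chemokine abundant in macrophages, was at 0.68 at 7 h and 1.11 at 21 h, a difference of 0.44 that returned it to near its unexposed level of 0.99. Spread-matched, Ccl9 (0.23), Cxcl10 (-0.24) and Ccl25 (-0.25) were within the rule. Ccl5 (-0.03), Il1rn (-0.02), Il18 (0.12) and Pf4 (0.10) were within the rule.

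Among 18 receptors for cytokines and chemokines, Il17rc (0.66) and Ccrl2 (0.30) were higher, and Il20rb (-0.55) and Il27ra (-0.51) lower, each on 1 probe. A panel of 40 genes known to be induced in macrophages had 23 measured. Of these 3 were higher (Tlr2, Ccl9 and Egr2) and 6 lower (Nfkbie, Cxcl10, Ifit1, Ccl12, Arg1 and Rsad2), and 3 and 4 after position correction. Spread-matched, 0 of the panel were higher and 5 lower. The panel median was -0.11. Of 16 inducible effectors Vcam1 (-0.37) and Arg1 (-0.34) were lower and 0 higher, with a median of -0.11. Arg1 was within the rule both position-corrected (-0.21) and spread-matched (-0.27). Among the others Sod2, the mitochondrial superoxide dismutase, differed by -0.29 ± 0.21 (SD over 4 probes), Saa3 by -0.09, Marco by -0.11 and Plaur by -0.21, the last being past the rule spread-matched (-0.45).

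**Figure D4:**
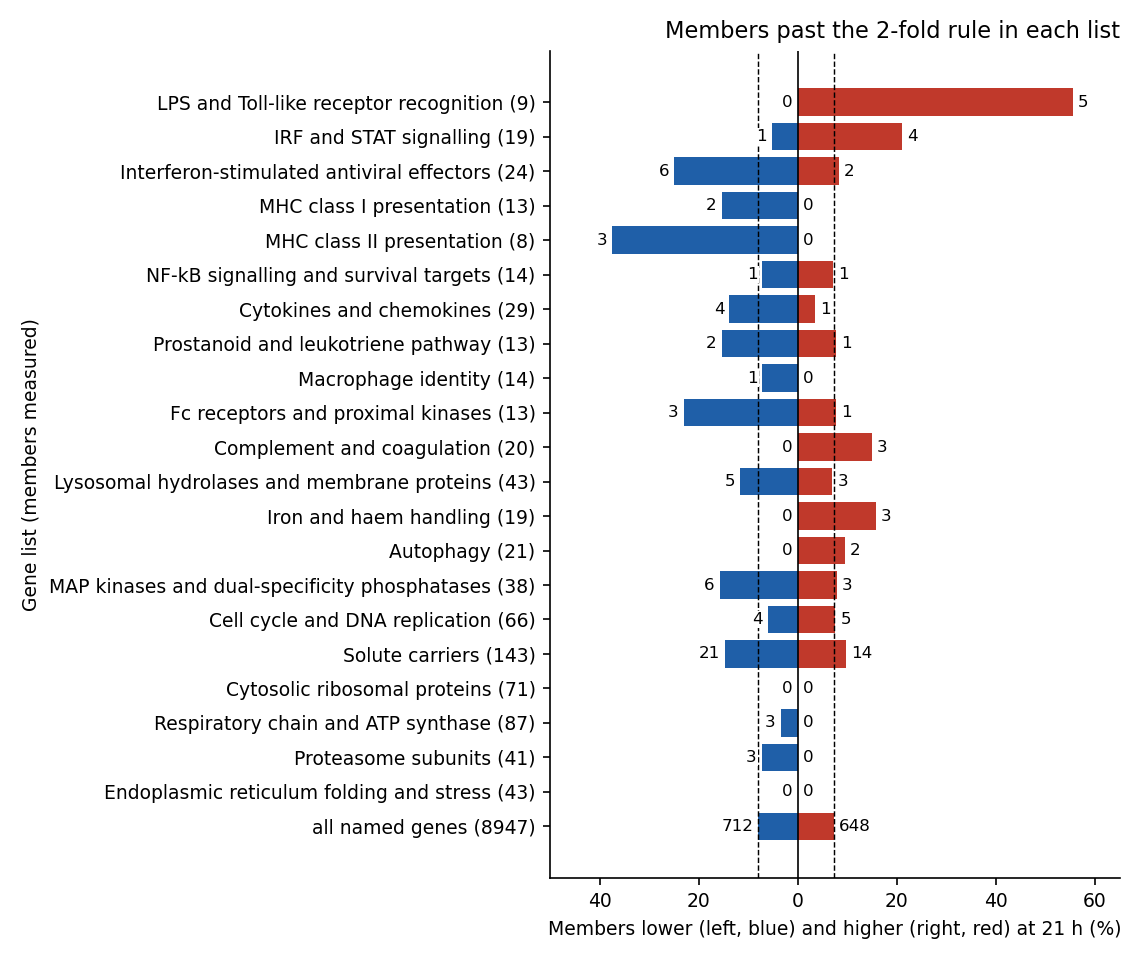
Share of measured members of selected gene lists (%) that were at least 2-fold lower (blue, left) or higher (red, right) at 21 h than at 7 h, with the number of genes beside each bar. Dashed lines mark the shares over all named genes, 7.96% lower and 7.24% higher.

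A list of Fc receptors and proximal kinases, which also holds other receptors and adaptors, had 3 of 13 lower and 1 higher. Counts were the same position-corrected, and 2 lower and 2 higher spread-matched. Among the genes past the rule only Fcgr1 and Syk are an Fc receptor and a kinase. Fcgr1, the high-affinity receptor for IgG, was at 1.71 at 7 h and 1.09 at 21 h, a difference of -0.61 on 1 probe, and was the 1 gene of 14 in the macrophage identity list past the rule. It had been at 1.17 in unexposed cells and 1.70 at 2 h. After quantile normalization Fcgr1 (-0.12) and Syk (-0.22) were within the rule, as they were spread-matched (both -0.22). Syk, the kinase that Fc receptors recruit, was at 1.02 and 0.60. Siglecf, an inhibitory sialic acid receptor, was at 2.12 at 7 h and -0.07 at 21 h on 1 probe, at 0.17 and -0.30 on the 0 h and 2 h arrays and at 0.80 on the 0.5 h array, so that 7 h was the highest of the 5. Sh3bp2, an adaptor that binds Syk, was higher, at 0.16 and 1.16. The subunit Fcer1g (0.05) and the inhibitory receptor Fcgr2b (0.04) were within the rule, though Fcer1g was lower spread-matched (-0.33).

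Complement genes had 3 of 20 higher and 0 lower. Cd55, which protects cells from complement, was at -0.51 at 7 h and 0.51 at 21 h on 1 probe, a difference of 1.02, with -0.44 in unexposed cells and -0.37 at 2 h. Its probe, 759, lies in the block 1 to 6000 of mostly higher probes, at percentile 98.8 among its neighbours. Cfp, properdin, was at 0.72 and 1.10, and C1ra, a protease of the C1 complex, at -0.12 and 0.23. All 3 kept their call position-corrected, but Cfp was within the rule spread-matched (0.12), where 2 of the list were higher and 1 lower. Of 8 genes of the phagocyte oxidase and antimicrobial proteins 0 passed the rule.

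**Figure D5:**
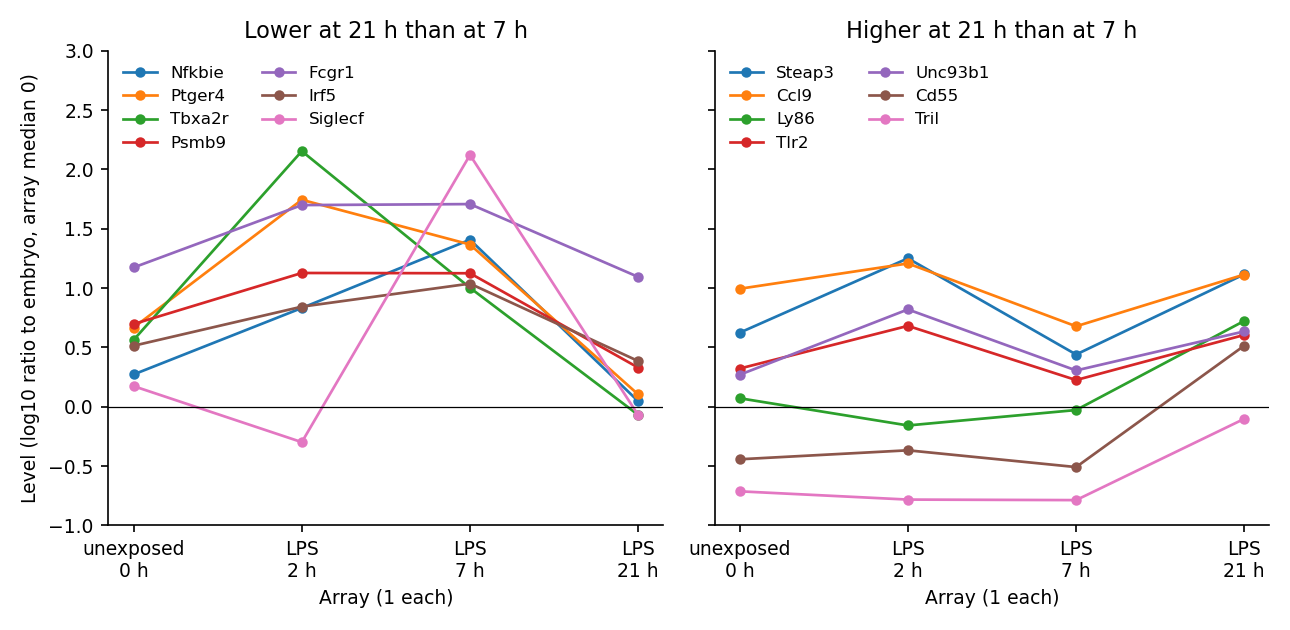
Level (log10 ratio of macrophage to embryo, array median 0) of selected genes on the unexposed array and after 2, 7 and 21 h of LPS, 1 array each; lines join the arrays of one gene. Genes lower at 21 h than at 7 h are on the left, with Siglecf highest at 7 h, and genes higher at 21 h on the right, with Ly86, Cd55 and Tril highest at 21 h.

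Iron and haem genes had 3 of 19 higher and 0 lower. Steap3 was at 0.49 and 0.39 at 7 h on 2 probes and at 1.33 and 0.90 at 21 h, a difference of 0.68 ± 0.24 (SD over 2 probes; 0.62 position-corrected). The means at 7 h and 21 h were 0.44 and 1.12. Unexposed cells had 0.62 and the 2 h array 1.25, with 2.96 on the 0.5 h array, so 7 h lay nearer to unexposed cells than 21 h did. Spread-matched, the difference was 0.32. The Steap3 probes, 370 and 2641, lie in the block 1 to 6000 of mostly higher probes, at percentiles 99.8 and 91.8. Alas1, the first enzyme of haem synthesis, was at -0.40 and 0.38, and Blvra, biliverdin reductase, at 0.08 and 0.60. The ferritin chains Fth1 (0.11) and Ftl1 (-0.09) and the transferrin receptor Tfrc (0.02) were within the rule.

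Lysosomal genes went both ways, with 3 of 43 higher (6.98%) and 5 lower (11.6%), beside 7.24% and 7.96% over all named genes. Both position-corrected and spread-matched, 2 were higher and 2 lower. Asah1, acid ceramidase, was higher (0.52 and 0.87). Mcoln1, a lysosomal calcium channel, was lower (0.47 and 0.01), at the rule position-corrected (-0.302) and within it spread-matched (-0.21). Autophagy had 2 of 21 genes higher (9.52%, beside 7.24% over all named genes) and 0 lower, with a median of -0.002. The 2 were Ulk1, a kinase (-0.32 and 0.15), and Atg13 (0.49 ± 0.37, SD over 2 probes). Their probes, 1887, 940 and 1485, lie in the block 1 to 6000 of mostly higher probes. Rab GTPases and vesicle coats had 9 of 111 higher (8.11%, near the share over all named genes) and 2 lower (1.80%, beside 7.96%). Among lipid genes Fabp5, a fatty acid carrier, was higher by 0.42 ± 0.18 (SD over 3 probes), and Pparg, a lipid-sensing receptor, lower by -0.47 on 1 (-0.26 spread-matched, within the rule).

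MAP kinases and their phosphatases had 3 of 38 genes higher and 6 lower, 4 and 4 position-corrected, and 4 and 3 spread-matched. Map2k6, a kinase that activates p38, was at -1.002 at 7 h and 0.57 at 21 h on 1 probe, with 0.49 in unexposed cells. Mapk8, JNK1, was at 0.64 and -0.14, and the phosphatase gene Dusp19 at 0.76 and -0.16. In the mTOR group Rheb, its activating GTPase (0.53), and Lamtor2 (0.58 ± 0.62, SD over 2 probes) were higher, 2 of 21. Apoptosis regulators had 3 of 22 higher, led by Bcl2l2 (0.79), a survival protein, and 0 lower.

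Cell cycle genes had 5 of 66 higher (7.58%) and 4 lower (6.06%), near the shares over all named genes. Position-corrected, 5 were higher and 2 lower. The genes named next are examples, not a shift of the list. Cdt1, which licenses replication origins, was higher on both probes (0.34 ± 0.01, SD over 2 probes, but 0.27 spread-matched), and Mki67 (0.37) and E2f1 (0.40) were higher on 1. Gins2, of the replicative helicase, was lower on both (-0.65 ± 0.22, SD over 2 probes), and Aurkb, a mitotic kinase, averaged -0.33 ± 0.32 and was within the rule position-corrected (-0.29). The inhibitor Cdkn2b was lower by -0.44 ± 0.43 over 6 probes, a spread as wide as the difference. Solute carriers had 14 of 143 higher (9.79%) and 21 lower (14.7%), beside 7.24% and 7.96% over all named genes.

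Several lists of general cell functions had 0 or few genes past the rule. Of 71 cytosolic ribosomal proteins 0 passed the rule, with differences from -0.29 (Rpl13a) to 0.20 (Rpl10) and a median of -0.03, over a median of 4 probes a gene. Of 43 genes of folding and stress in the endoplasmic reticulum 0 passed it, and of 29 genes of the TCA cycle 0. The respiratory chain had 0 of 87 higher and 3 lower, led by Ndufa5 (-0.38 ± 0.23, SD over 2 probes), of which 1 was lower position-corrected, Ndufa5 (-0.27) being within the rule. Glycolysis had 1 of 25 in each direction. Lists with more probes a gene average out more of the probe noise, so their counts are not on a par with lists on 1 probe.

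Single genes made up the largest differences, nearly all on 1 probe. Misp3 was at 3.23 at 7 h and -0.25 at 21 h, with 1.54 at 2 h, and Pgs1, a mitochondrial phospholipid enzyme, at 2.42 and 0.22. Siglecf (-2.19) and Ceacam18 (-1.89) were next, and Msln, mesothelin (-1.50), was also among the 12 largest falls. Flnc, a filamin of muscle, was at -1.41 and 1.26, the reverse order, with no value on the 0 h and 2 h arrays. Map2k6 (1.58), Ttc36 (1.55), the metalloproteinase Adamts3 (1.26) and Cobl, an actin nucleator (1.24), followed. Of 12 genes with the largest falls Ubd alone had more than 1 probe, and of the 12 largest rises none had.

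Levels on the other arrays were set beside these genes. Of 701 lower genes with a value on the 0, 2, 7 and 21 h arrays, 21 h was the lowest in 581 and 7 h the highest in 548, and the median level was 0.21 at 0 h, 0.44 at 7 h and -0.07 at 21 h. Of 631 higher genes 21 h was the highest in 451 and 7 h the lowest in 470, with medians of 0.02, -0.13 and 0.31. Both arrays thus enter these differences, on either side of the unexposed level, and that order follows in part from choosing genes by their difference. Probes above their unexposed value at 2 h and 7 h and below it at 21 h, as for Ptger4, made up 17.6% of probes 7601 to 10400 and 5.86% of probes 1 to 6000.

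Markers of other cells were read as lists. Of 7 neutrophil genes 0 passed the rule (median -0.09), and of 4 dendritic cell genes 0. Of 5 B cell genes Vpreb3 was lower (-0.69) and all 5 differences were below 0, with a median level of 0.02 at 7 h and -0.43 at 21 h. Of 5 T and NK cell genes Cd3d was lower (-0.37, but -0.22 position-corrected, within the rule), and of 5 mast cell and basophil genes Cpa3 (-0.35). Collagen and matrix genes had 7 of 56 higher and 2 lower (11 and 2 spread-matched), led by Nid2, a basement membrane protein (0.81), and Lama1, a laminin chain (-1.197), and fibroblast markers 1 of 15 in each direction. The part of other cells in the differences was not tested.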

How the data were processed

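Two-colour cDNA arrays were used, 1 each at 7 h and 21 h of LPS, with the 0 h and 2 h arrays as values beside them. The 0.5 h array was used for Ptger4, Nfkbie, Siglecf and Steap3. It also entered the alternative restricted to genes with values on all 5 arrays. The authors deposited 1 log ratio per probe and array, read here as log10. The dye was Cy3, coupled to amino-allyl cDNA, per the labels. How arrays were scanned, background-corrected and normalized is not given in the sources used here, so signal over background is unknown. Deposited medians were 0.00 at 7 h and 0.03 at 21 h, with 257 and 154 missing values of 19828. Precision is limited by having 1 array a time.

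Of the probes, 14759 had 1 gene symbol, 170 several and 4899 none here; 14628 matched a RefSeq table (GRCm38.p6) by Entrez identifier, and a probe named a gene only if it had 1 symbol. Arrays were centred on their median and probes of a gene averaged, with no filter on low values. No table column without a sample was used (0). No test was run. The genes and the 57 gene lists were chosen with earlier results of these data known, and lists can overlap. The text names the 12 largest differences each way, genes whose every probe passed, list members past the rule (at most 4 a direction, otherwise the highest and lowest) and the inducible panel, in examples; Cd68, Tyrobp, Lyz2 and other members within the rule, and Ifit1bl2, Rbm34 and Mafk, were picked after their values were seen. Alternatives were no centring, centring on named genes, quantile normalization, scaling to a common median absolute deviation, subtraction of a loess trend (span 0.3) or a running median over 400 probe numbers, the median probe, values on all 5 arrays, annotation symbols, rules of 1.5-fold and 3-fold, and other log bases; local matching of median and spread and leaving out the last probes were added after seeing the data. Scripts were run on simulated arrays with known differences, less probe noise than these data and no difference in local spread between arrays. Recovery was required on every scale without shifts along the probe numbers. With such shifts it was required only position-corrected. Versions were statsmodels 0.14.6, matplotlib 3.10.9, pandas 2.3.3 and numpy 2.4.6, under Python 3.11.15.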

Additional observations from a re-analysis of the deposited data

How the results depend on the processing

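The counts of 648 higher and 712 lower genes kept within 1.5 times under all 9 other planned treatments of the values and under the 2 added later, with 504 to 808 higher and 502 to 719 lower. They moved with the rule and the base. At 1.5-fold there were 1371 higher and 1657 lower, at 3-fold 238 and 327, with values read as log2 18 and 53, and as natural log 88 and 152. Of genes with at least 2 probes 2.70% were higher, beside 7.24% of all. Ctss changed sign after quantile normalization (0.074), and Ifi204 (-0.10) and Ifi35 (0.0054) with local median and spread matched. Of 97 named genes past the rule, that matching left 35 within it, the running median 16, quantile normalization 10, the loess trend 6, no centring 4 and scaling to one median absolute deviation 1; the cause was not tested. The median probe, centring on named genes, annotation symbols and leaving out the probes numbered above 18000 left 0 within it, as did restriction to values on all 5 arrays, over 84 genes. Leaving out those probes could change no named gene, since none lies there and the array medians were kept. Annotation symbols moved none of 262 genes checked (largest move 0). Neither is a check of the counts. Of 57 list medians 41 kept their sign without centring, 44 after quantile normalization, 41 after removal of the running median and 41 with local spread matched; most lay near 0. No paired analysis was possible because each group held 1 array. Signal over background is unknown, and 1 array a time limits every value.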
